A study of Drosophila melanogaster with 2 samples.

Results

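Deep intronic summits are places where the ChIP-seq signal of the bsh-GFP fusion protein peaked inside a gene but far from any annotated start of transcription. They were taken from the deposited dm6 list of regions that passed a threshold on the irreproducible discovery rate (IDR), which scores how closely replicates rank the same regions. A region was a member when its summit lay more than 2000 bp from every transcription start site (TSS) of a protein-coding gene and inside a protein-coding gene, but in no coding sequence and no untranslated part of an exon. This position rule used no signal value beyond the authors' own threshold, and it found 1264 of the 4447 IDR regions. The chromatin came from whole Drosophila melanogaster embryos of 0 to 24 h, both sexes pooled, of 1 transgenic line that stably expresses bsh with GFP at its C-terminal end. An antibody against GFP was used, the chromatin was sonicated to 200 to 800 bp, and 2 biological replicates made up the only group. There was no other genotype, treatment or age, and the possible control named in the labels was not analysed here, so the part of the signal that would appear without the fusion protein was not tested. All cells of the embryo entered the extract together, so binding in a few brain cells and weak binding in many cells cannot be told apart. Read numbers are not part of the lists, and the depth of both replicates is unknown.

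The gene bsh, brain-specific homeobox, encodes a homeodomain transcription factor that is known for setting the identity of neurons in the fly visual system. Homeodomain proteins grip DNA through a recognition helix, and most of them favour short words with an ATTA core. Introns of fly developmental genes often carry enhancers, which act on a promoter from a distance, and the first introns of such genes are often long. Chromatin at fly enhancers and promoters is also bound by GAGA factor, which recognises runs of alternating G and A.

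The sequence at some of the strongest summits is shown first. Below are 30 bases of the plus strand of dm6, from RefSeq, around the summits of 10 members. These 10 are the strongest members outside the chromosome arm that holds dnr1 (signal 2129.83) and CG12769 (964.1). No sequence from that arm is shown, here or among the next windows. Capitals mark any of 12 words that were searched on both strands. Among the words, TAATTA is a common homeodomain core, CAATTA a variant of it and TAATCC the word of Bicoid-class homeodomains. GAGAGA is the word of GAGA factor, ATCGAT the core of the DRE promoter element, CAGGTA that of the early activator Zelda and CAGCTG an E-box of bHLH proteins. TGTTTA is bound by forkhead proteins, AGATAA by GATA factors and TGACTCA by AP-1, while CACACA is a simple repeat and ACACTG is given no factor here. The first pair, TAATTA and CAATTA, share their last 5 letters.
osa (chr3R:17704408-17704437, intron 4): caagtcactcatcaaaagactgaactttgg
spen (chr2L:166630-166659, intron 2): cttgttttCAATTAgagtcgaaaaaaagaa
pnt (chr3R:23334414-23334443, intron 3): ttaattcttttttggttgtctttgcgtttt
Hr4 (chrX:1951908-1951937, intron 2): atgtcactacgaattaggagctactatgtt
tna (chr3L:10852902-10852931, intron 1): gacgaaataataaaaataaaaacgccaaga
foxo (chr3R:14061564-14061593, intron 2): gtttttggtttttttcttttcgtttttcga
InR (chr3R:21605403-21605432, intron 1): aacgaaaaacaaaagggaaaataaagaaaa
pum (chr3R:9229269-9229298, intron 3): tccaagacgctatcttaatcaatgtaattt
LpR2 (chr3R:25738165-25738194, intron 2): aatgtcatatatagcacgccaaaaagtatg
Tet (chr3L:2824175-2824204, intron 4): ctttggaattatatgtgcgaattcttagat
Of these 10 windows, the one in spen holds a searched word, CAATTA. The windows in foxo and InR are mostly T and mostly A.

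The next windows are members with a word within 12 bp of the summit, shown because these words are the ones compared with flanking sequence further on. TAATTA reads the same on both strands, CAGTGT is ACACTG on the other strand, and TCTCTC is GAGAGA on the other strand.
Pak3 (chr3R:16449379-16449408, signal 554.3): tatctttTAATTAtactctcagttgtcacc
comm3 (chr3L:15625843-15625872, signal 360.9): taaaattaTAATTAcggctaataatgttat
Wwox (chr2L:8001768-8001797, signal 325.8): aatcTAATTAagcgagttagcgctgataag
crol (chr2L:11806883-11806912, signal 323.2): tcgtctcgccTCTCTCTCgctcctgcctct
mtgo (chr2L:16588120-16588149, signal 235.9): gcaGAGAGAcctgaatcttcgatggttttt
ct (chrX:7626971-7627000, signal 201.8): tttcaagagactgtgagtGAGAGAGAacac
Kal1 (chr3R:24144763-24144792, signal 356.6): atggtACACTGagaaaaaaacaatagatac
CG34347 (chr3R:31330121-31330150, signal 228.3): tagtgtatttttgtCAGTGTatggccttac
FER (chr3R:9379053-9379082, signal 226.5): cgtttcagggactACACTGgtaaaaataag

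The 1264 members were 28.4% of the IDR list (95% Wilson interval 27.1 to 29.8%). Their share was 29.1% among the strongest 4447 regions of replicate 1 (1292 regions). It was 27.5% among those of replicate 2 (1218 of the 4434 regions on chromosome arms), which gives 28.3% ± 1.12 (SD, n = 2). The sequence that meets the position rule, called eligible below, spans 42.3 Mb, or 31.6% of the 133.9 Mb assembled in the 6 arms. Members thus lay at 29.9 per Mb of eligible sequence, against 34.7 other IDR summits per Mb of the rest. Regions that overlap each other merge the 1264 members into 1205 separate loci.

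The signal values, which are the authors' own and on a scale that is not given, ran from 119.6 to 2129.83 with a median of 179.1 (quartiles 143.4 and 252.9). Promoter summits, those within 500 bp of a TSS, had a median of 181.5 (n = 1642), and intergenic summits over 2000 bp from a TSS had 174.4 (n = 600). Summits 501 to 2000 bp from a TSS stood higher, at a median of 194.6 (n = 918). Members were fewer at the very top of the list: 17 of the 100 strongest regions and 95 of the 500 strongest (19%) were deep intronic. Down the pooled list, which runs on past the IDR threshold to 30000 regions, their share went the other way. It was 28.2% at ranks 1 to 3000, 32.1% at ranks 9001 to 12000 and 36.6% at ranks 27001 to 30000, while that of promoter summits went from 36.5% to 18.1%. The deep intronic share lay below the 31.6% of assembled sequence that is eligible at the top and above it at the bottom.

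The median region was 440 bp wide (110 to 911 bp), and 55.6% of members were exactly 440 bp. Summits lay a median of 6355 bp from the nearest TSS (quartiles 3705 and 11602 bp), and that TSS belonged to the host gene in 937 members (74.1%). At the limit of 2000 bp, the first members inside were a summit in tna at 2007 bp (signal 303.4) and one in CG43658 at 2010 bp (202.8). Just outside lay summits in cv-2 at 1986 bp (129.6) and in msn at 1974 bp (365.1). The 3 members farthest from a TSS were all in hth, which encodes a homeodomain partner of the Hox proteins. They lay 83265, 80896 and 63967 bp away in introns 11, 9 and 7, with signals of 153.2, 161.9 and 137.1. The rule looked at coding starts alone. Within 500 bp of the TSS of a noncoding gene lay 38 members (3.01%, interval 2.20 to 4.10%), against 4.69% of eligible bases. Inside a noncoding gene lay 55 members (4.35%, 3.36 to 5.62%), against 10.3% of eligible bases.

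Replicates were compared on these regions, since the position rule says nothing about them. The IDR list, however, was chosen on these same 2 replicates, so a high share found in both is partly built in. All classes compared here passed that same selection. A member counted as found in a replicate when it overlapped one of the strongest 4447 regions there by at least 1 bp. In both replicates 945 members were found (74.8%, 95% Wilson interval 72.3 to 77.1%), against 73.7% of promoter summits and 70.8% of intergenic summits. Neither difference passed Fisher's exact test (two-sided, adjusted p = 0.626 and 0.122, over 6 tests on regions, which are not embryo collections). The replicates taken singly split the classes in opposite ways. The IDR list holds the strongest regions of the pooled list, so a region low in 1 replicate tends to enter only if high in the other. Opposite directions are thus partly built in, and the p-values below do not allow for this. In replicate 1, 89.2% of members and 84.4% of promoter summits were found (odds ratio 1.53, adjusted exact p = 0.000922). In replicate 2, 84.5% of members and 87.9% of promoter summits were found (odds ratio 0.747, adjusted exact p = 0.0169). Against intergenic summits, members stood higher in replicate 2 (84.5% against 79.5%, odds ratio 1.41, adjusted exact p = 0.0169), with 89.2% against 89.3% in replicate 1 (adjusted exact p = 1). Some region of the full list of replicate 1 overlapped each of the 1264 members, and 1260 had one in replicate 2. The ranks of these 1260 correlated with Spearman's rho 0.709, a description across regions that share 1 pooled selection.

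**Figure D1:**
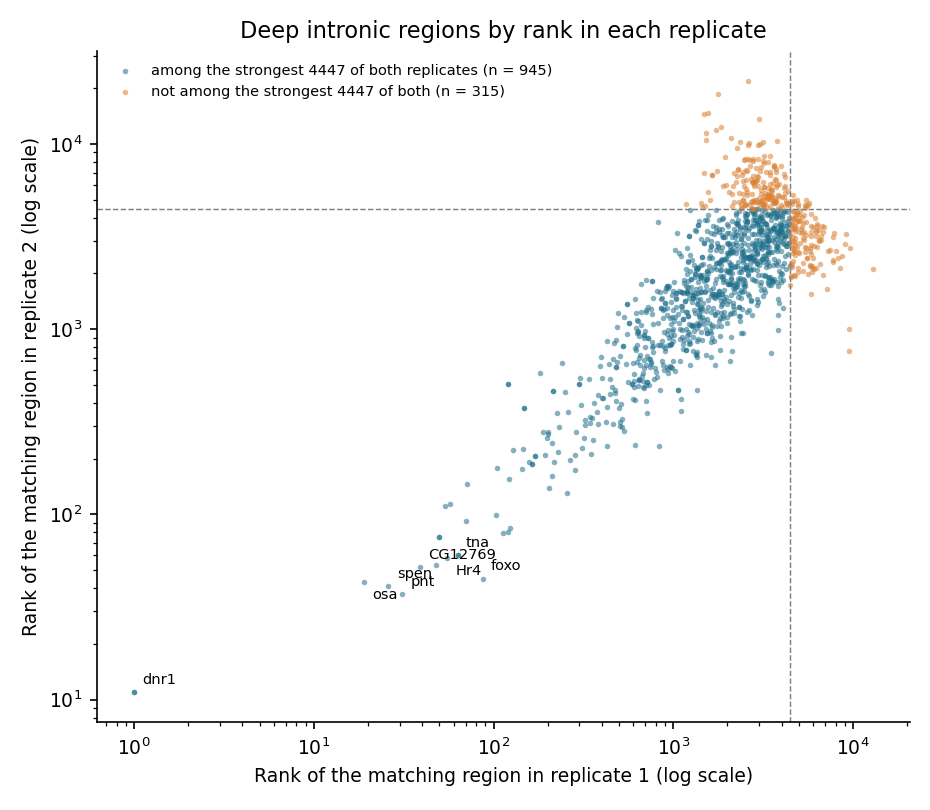
Rank of each of 1260 deep intronic regions in replicate 1 (x) and replicate 2 (y), both on log scales with rank 1 the strongest; each point is a region and the dashed lines mark rank 4447. The 945 blue points lie within that rank in both replicates. The strongest member, in dnr1, lies off the diagonal, at rank 1 in replicate 1 and rank 11 in replicate 2.

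The strongest member lay in the first intron of dnr1, which encodes a repressor of the Imd immune pathway. Its pooled signal was 2129.83, with 1147.52 in replicate 1 and 980.1 in replicate 2. It ranked 1 in the pooled list and in replicate 1, and 11 in replicate 2. The nearest TSS, at 7674 bp, is that of CG11362 and not of dnr1. It was the exception in this respect, as the other 19 of the 20 strongest members were nearest to a start of their own host. The lowest rank among these 20 was 143 in replicate 1 and 178 in replicate 2, and they were chosen on the pooled signal of both.

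The 20 are given here in groups made after they were seen, with no test of any group. A summit in osa, which encodes a subunit of a SWI/SNF chromatin remodelling complex, had a signal of 1107.72 (653.7 in replicate 1 and 459.9 in replicate 2). It lay 13928 bp from the osa TSS in intron 4 and also inside a noncoding gene. The summit in spen, which encodes a large nuclear RNA-binding protein, had 1079.86 (610.4 and 461). The summit in pnt, which encodes an ETS transcription factor of the EGF receptor pathway, had 1047.22 (559.6 and 491.1). The trithorax-interacting gene tna had 866.6 (466.2 and 390.4) and Tet, a relative of the mammalian TET dioxygenase genes, had 772 (442.9 and 336.6). The gene lilli, of the AF4 family of elongation factors, had 728.4, and the histone kinase gene JIL-1 had 659.9. The JIL-1 summit stood in an intron of 1.94 kb, the shortest intron of the 20.

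Of the 20, 5 lay in 4 genes of the insulin and ecdysone lists counted further on. The transcription factor gene foxo, which insulin signalling holds in check, had 859.1 (413.6 in replicate 1 and 439.2 in replicate 2). The insulin receptor gene InR had 855.9 (508.1 and 348.6), 13296 bp from its TSS. The nuclear receptor gene Hr4 held 2 of the 20, both in intron 2, with 884.4 and 670.9. The ecdysone-induced nuclear receptor gene Eip75B had 630.3 in intron 3, which spans 65.2 kb. The replicates gave foxo different places, rank 87 in replicate 1 and 45 in replicate 2, and InR ranks of 50 and 75.

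The others lay in genes of varied function. They were CG12769 (964.1), pum, which encodes a translational repressor (806.2), the lipophorin receptor gene LpR2 (788.4), CG2865 (738.2), the acyl-CoA synthetase gene pdgy (727.3), the MAP kinase cascade gene Raf (718.1) and the lipoprotein receptor relative LRP1 (708.3). The LpR2 summit was 152 bp from a noncoding TSS and inside a noncoding gene. The pum summit was also inside a noncoding gene, but 1150 bp from the nearest noncoding TSS. Of the 20, 5 lay in a first intron.

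The position of members within the gene was compared with the eligible sequence there. First introns, numbered in the longest transcript of the host, held 520 members (41.1%, exact binomial 95% interval 38.4 to 43.9%). They held 26.2% of eligible bases, a ratio of 1.57 (exact binomial interval 1.47 to 1.68). Densities went down with intron number, from 47.0 per Mb in intron 1 (exact Poisson interval 43.0 to 51.2) to 35.6 in intron 2, 31.8 in intron 3 (27.2 to 36.9) and 11.2 in intron 4 or later (9.49 to 13.1). Both replicates gave the same order of the first and last class, with 48.0 and 45.3 per Mb in intron 1 and 12.01 and 12.2 in intron 4 or later. The intervals of introns 2 and 3 overlapped. All intervals cover counting error only.

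Density also depended on distance to a TSS, even beyond the limit of 2000 bp. It was 39.9 per Mb at 2001 to 5000 bp (482 members), 36.7 at 5001 to 10000 bp (394), 30.4 at 10001 to 20000 bp (269) and 21.6 at 20001 to 40000 bp (103). Beyond 40000 bp it was 2.73 per Mb (16 members, interval 1.56 to 4.43). Of those 16, 8 were found in both replicates, against 370 of 482 (76.8%) in the nearest class. The host introns of 5000 bp or less held 17.2 members per Mb, those of 10001 to 20000 bp 38.8 and those over 40000 bp 24.6.

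A few giant genes carried part of this. The 10 genes with over 200 kb of eligible sequence held 5.04 Mb and 16 members (3.18 per Mb), of which 13 were in kirre and 3 in Ten-a. Without them, in an alternative chosen after seeing the data, the first-intron ratio was 1.44, the density beyond 40000 bp was 9.22 per Mb (5.27 to 14.97) and that in introns over 40000 bp was 37.3. The intron 1 density without them was 48.4 per Mb and that of intron 4 or later 13.8 (11.7 to 16.3).

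**Figure D2:**
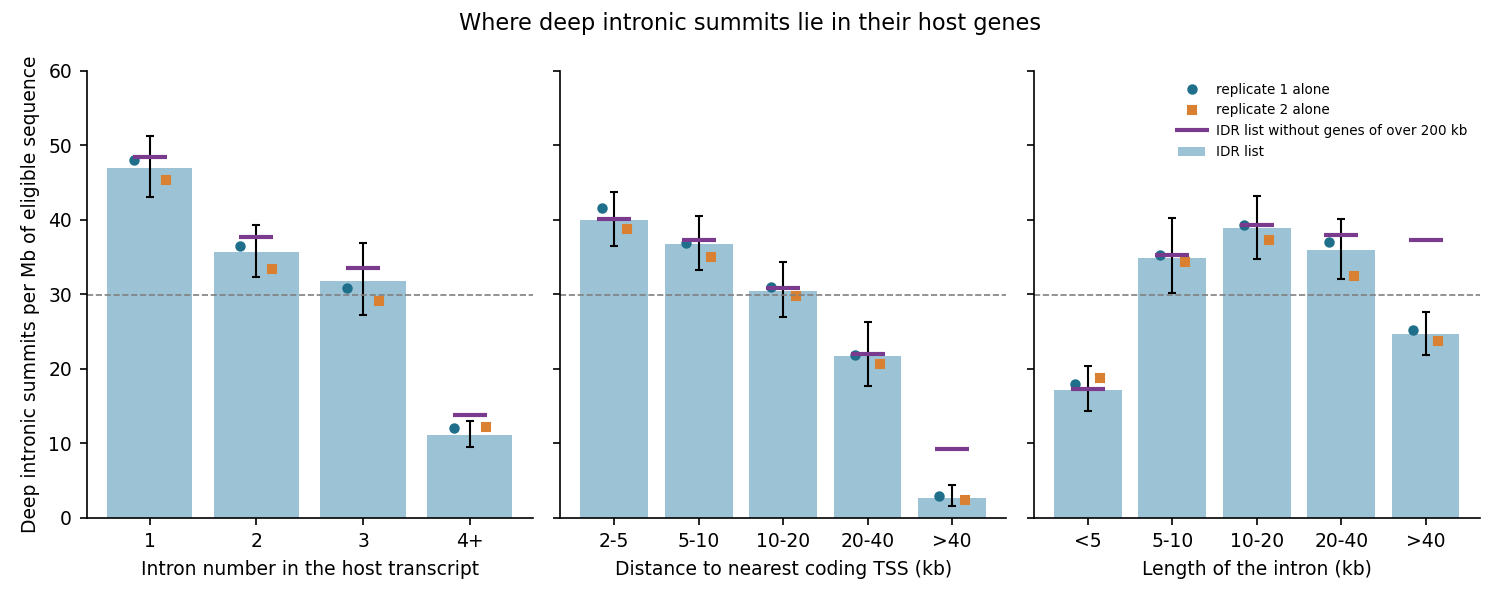
Deep intronic summits per Mb of eligible sequence (y, from 0) by intron number, by distance to the nearest coding TSS in kb and by intron length in kb; bars are the IDR list with exact 95% Poisson intervals, points the replicates alone, purple marks the IDR list without the 10 genes of over 200 kb, and the dashed line the mean of 29.9 per Mb. Density falls from 47.0 in intron 1 to 11.2 in intron 4 or later, and the purple marks depart most from the bars beyond 40 kb.

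By chromosome arm, members stood at 33.9 per Mb of eligible sequence on X (interval 29.9 to 38.3), 31.2 on 3L, 30.4 on 2R, 30.2 on 2L and 26.9 on 3R (24.0 to 30.1). Without the giant genes 3R had 35.0 per Mb and 3L 36.0, so the order of the large arms rests on those genes. Chromosome 4 held 1 member in its 0.451 Mb, or 2.22 per Mb (0.0562 to 12.4).

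Host genes were few relative to the genes that could have hosted a member. Of 4257 genes with eligible sequence, 512 (12%) held at least 1. The share went up with eligible length, from 0.575% of genes with up to 2 kb to 14.1% of those with 2 to 10 kb, 33.4% of those with 10 to 50 kb and 51.2% of those with more. In each replicate alone the number of hosts was 529 and 518. Of the 512 hosts, 229 held 1 member, and 64 hosts with 5 or more held 438 members (34.7%). Another member lay within 5 kb in 724 cases (57.3%), a count that includes overlapping regions and has no comparison here.

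Tet held the most members, 14, spread over 73.7 kb in introns 1, 3 and 4. Their signals ran from 126.7 to 772 with a median of 195.5, and 12 of the 14 were found in both replicates. The transcriptional corepressor gene sbb held 13, all in intron 2 (130.9 to 411.5, median 175.8). kirre, which encodes an adhesion protein of myoblast fusion, held 13 in its 271.7 kb of eligible sequence. That is 47.9 per Mb, against 187.2 in Tet and 278 in sbb. Of the 13 in kirre, 11 lay in intron 5, and the signals of all 13 ran from 124.6 to 293.9.

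Snoo, which encodes a corepressor of the Smad pathways, held 12 members in intron 2, and all 12 were found in both replicates. They formed 10 separate loci, since some overlapped. heca held 11 members in introns 1 and 2 (125.5 to 495.4). Mnt, which encodes a partner of Max and antagonist of Myc, held 11 in 18.8 kb of eligible sequence, or 584.9 per Mb, the densest of the 8 genes with most members. All 11 in Mnt were found in both replicates and ranged from 175.1 to 410.7. Raf held 9 in intron 2 (144.5 to 718.1), and tara, a gene of the trithorax group, held 9 in intron 1 (133.5 to 454.4). Each replicate's own strongest 4447 regions, counted afresh, gave 14, 14, 16, 11, 13, 11, 9 and 9 summits in replicate 1 in the order Tet, sbb, kirre, Snoo, heca, Mnt, Raf and tara, and 13, 14, 12, 14, 12, 12, 7 and 8 in replicate 2.

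Of the 166 genes with over 50 kb of eligible sequence, 81 held 0 members. The largest of them are named here after their values were seen. Myo81F, which lies near the centromere of 3R, has 1957.5 kb of eligible sequence, with 58.5 members at the mean density. The 0 members there allow up to 1.53 per Mb, taking 3 members over that length as the bound. Pzl (702.1 kb), lovit (430.3 kb), CG17684 (390.9 kb), DIP-lambda (374.8 kb), bru3 (259.9 kb), Snap25 (220.9 kb) and l(3)80Fg (210.5 kb) also held 0. Pzl lies beside Myo81F on 3R. CG17684 and DIP-lambda end by base 2262115 of 2R, and Snap25, lovit and l(3)80Fg start at base 24074180 of 3L or later. The part of chromosomal position in these counts was not tested. Both replicates alone held 0 in each of these 8 genes.

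**Figure D3:**
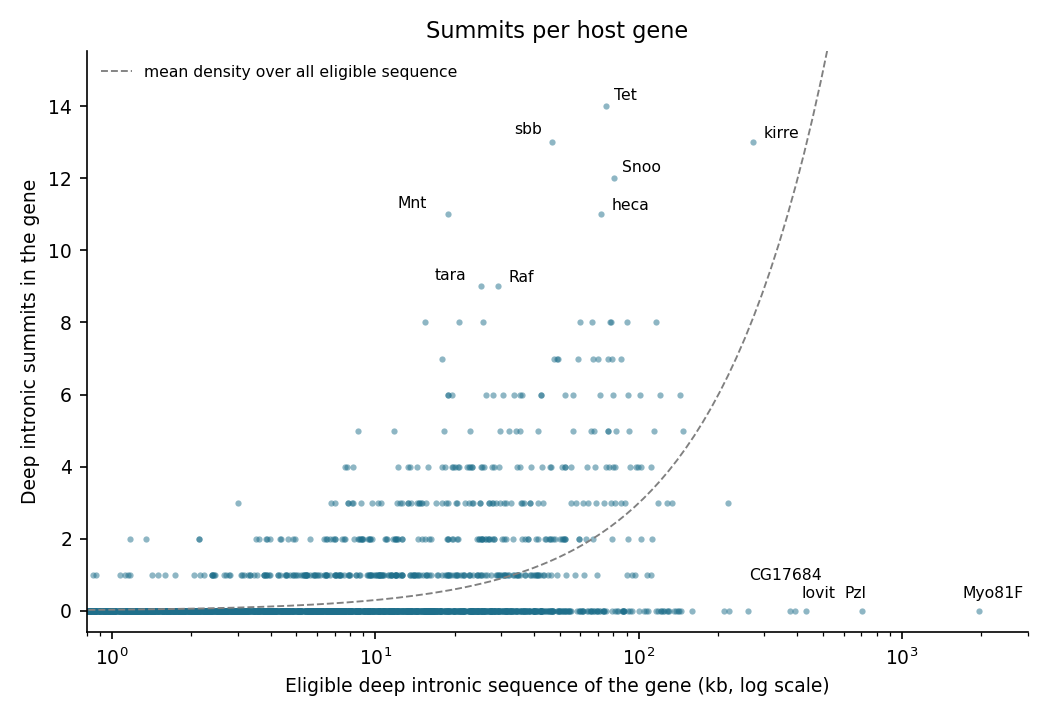
Number of deep intronic summits (y) against eligible sequence in kb (x, log scale from 0.8 kb) for genes with eligible sequence; each point is a gene and the dashed curve is the mean density of 29.9 per Mb. Tet, sbb, Snoo, heca, Mnt, tara, Raf and kirre lie above the curve, and Myo81F, Pzl, lovit and CG17684 lie at 0 with 390.9 kb or more.

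Pathway genes were then counted in 10 lists that were chosen with earlier results of these data known. For each, the number of genes hosting a member stands beside the 12% over all genes with eligible sequence. The list genes are long. Their median was 2.27 to 32.4 kb of eligible sequence in the 9 lists of regulatory, neural and muscle genes, against 1.57 kb over all genes. The shares by length given above are thus the closer background. Densities allow for length in part only, since the density over all genes itself differed with eligible length. It was 13.7 per Mb in genes with up to 2 kb and 41.5 in those with 2 to 10 kb. In genes with 10 to 50 kb it was 36.15, and in those with more 21.1. No test was run on the lists.

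EGF receptor and BMP signalling genes hosted members in 15 of 22 cases, with 54 members at 129.1 per Mb (exact Poisson interval 97.0 to 168.5, against 29.9 over all genes). The replicates alone gave 129.1 and 117.2 per Mb. The strongest members lay in the effector gene pnt (highest signal 1047.22) and in aop, which encodes the opposing ETS repressor (513.9). They were followed by dpp, the BMP ligand gene (502.3), and the glypican gene dlp (494.6). shn, which encodes a zinc finger cofactor of BMP signalling, held 8 members in 20.7 kb, and the receptor gene Egfr held 6 in 18.9 kb.

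Ecdysone and nuclear receptor genes hosted members in 11 of 16 cases, 49 in all at 89.2 per Mb (66.0 to 118). The replicates alone gave 87.4 and 89.2. Besides Hr4 and Eip75B, the strongest were in the early ecdysone-response genes Eip74EF (highest signal 546.6, 7 members) and Eip78C (423, 4 members). The receptor gene EcR itself held 7, with a highest signal of 262.2.

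Insulin, TOR and JNK genes hosted members in 6 of 20 cases, 20 in all at 141.5 per Mb (86.45 to 218.6). The replicates alone gave 134.5 and 84.9 per Mb (19 and 12 members). The list covers just 0.141 Mb, and InR held 6 of the 20. After foxo and InR came puc, which encodes a phosphatase that restrains JNK (304, 5 members), and the kinase gene S6k (191.6, 1 member).

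Notch pathway genes hosted members in 6 of 15 cases, 19 in all at 80.8 per Mb (48.7 to 126.2), with 63.8 and 89.3 in the replicates. The coactivator gene mam led with 7 members and a highest signal of 599. It was followed by kuz, which encodes the protease that cleaves Notch (364.3), the ligand gene Delta (351.4, 3 members) and fng, a glycosyltransferase gene (159.2). N itself held 2, up to 151.7.

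For 3 lists, besides the cuticle list given last, the interval of the density held the 29.9 per Mb of all genes. Muscle and mesoderm genes stood at 43.3 per Mb (28.3 to 63.4, 6 of 22 genes), and 13 of their 26 members were in kirre. The strongest signals were in mbc (370.8), in mew, which encodes an integrin subunit (366.6), in kirre (293.9) and in Mef2, the muscle regulator gene (211.2). Axon guidance and adhesion genes stood at 36.4 (24.2 to 52.6, 11 of 26), led by Sema1a, a semaphorin gene (486.7), sli, which encodes the midline repellent Slit (299.8), Ptp10D (282.8) and NetA (258.5). Homeobox genes, the family of bsh, stood at 25.7 (15.48 to 40.2, 9 of 36), led by inv (249.8), NK7.1 (209.7), ct (201.8) and hth (188.3). Of their 19 members, 8 were in hth.

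For 2 lists the interval lay below the value for all genes. The 26 ion channel and receptor genes listed held 0 members in 0.663 Mb (exact Poisson interval 0 to 5.565 per Mb), with 19.8 members at the mean density. The list is a choice of such genes, and channel genes outside it, found after values were seen, did host members: Ca-beta (324.9), NaCP60E (264.8) and Elk (134.3) held 1 each. Dpr and DIP genes, which encode paired surface proteins of synaptic matching, held 2 members in 28 genes (2.45 per Mb, 0.297 to 8.87). These were in DIP-alpha (370.5) and DIP-gamma (181.9). The list spans 0.815 Mb, and the weight of giant genes in its density was not tested. The DIP gene DIP-lambda has 374.8 kb of eligible sequence and 0 members. Both replicates alone gave the same counts, 0 and 2.

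Cuticle genes held 0 in 5 genes (exact Poisson interval 0 to 436.6 per Mb), and their 0.00845 Mb would hold 0.253 at the mean density.

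**Figure D4:**
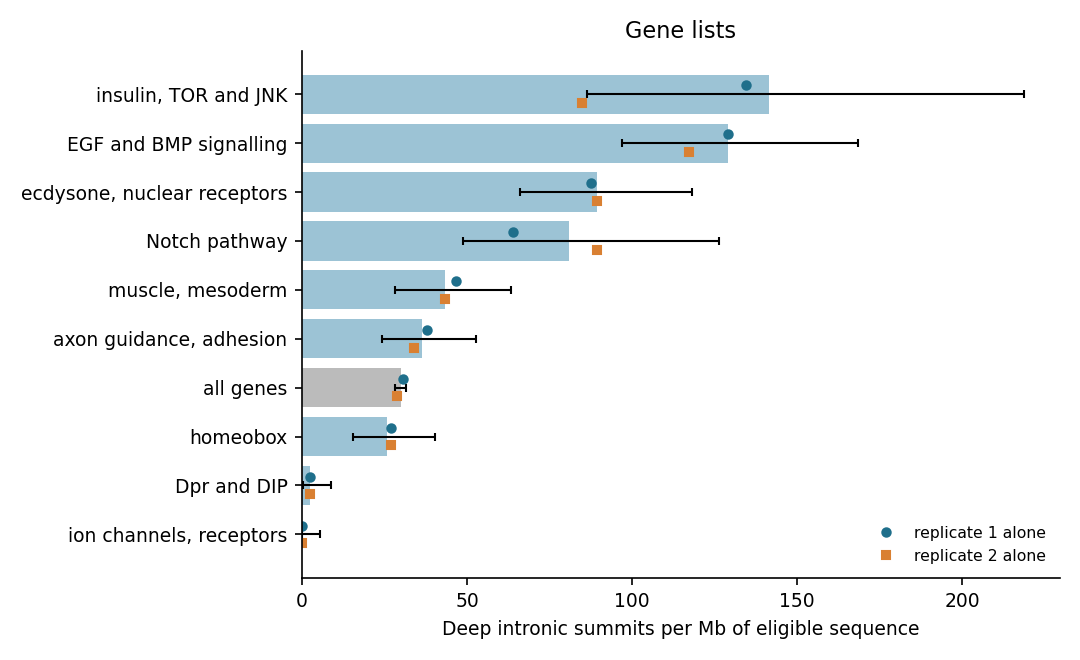
Deep intronic summits per Mb of eligible sequence (x, from 0) in 9 gene lists and over all genes (grey); bars are the IDR list with exact 95% Poisson intervals, and points are the replicates alone. The insulin, TOR and JNK list stands at 141.5 and the EGF and BMP list at 129.1 per Mb, against 29.9 over all genes and 0 for the 26 channel and receptor genes listed.

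Sequence at the summits was set against the flank of the same region. A word was counted when it occurred on any strand in a window reaching 100 bp to each side of the summit. The flank was an equally wide window with its centre 600 bp to the right. Of 12 words, 3 (25%) passed an exact McNemar test over the 1264 members (two-sided, Benjamini-Hochberg over the 12). The units are regions. Of each word, the share over 42266 windows of the same width, placed every 1000 bp of eligible sequence, is given as well.

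ACACTG occurred at 15.6% of member summits and in 5.78% of their flanks (ratio 2.70, adjusted exact p = 2.98e-14), and in 7.15% of eligible windows. It had been put among the 12 because it stood out earlier in these data, so its test is no independent evidence. It led all 1763 ranked words of 6 bases, at 2.49 times the mean of both flanks. Words that share 5 letters with it followed, CACTGA at 2.34 and AGTGTA on the other strand at 2.19. The ratio was 2.28 in replicate 2 alone and 2.56 in replicate 1 alone, and 3.32 among the stronger 2223 IDR regions. Across the members, ACACTG did not centre on the summit: 6.09% of regions had it in the 50 bp bin centred 75 bp to the left and 5.78% in that centred 75 bp to the right. The bins centred 25 bp to the left and right held 2.45% and 3.17%. Intergenic summits showed a ratio of 2.32 (17.0% against 7.33%, adjusted exact p = 5.57e-06) and promoter summits 1.83.

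GAGAGA occurred at 13.8% of member summits and in 8.78% of their flanks (ratio 1.58, adjusted exact p = 0.00052), and in 7.56% of eligible windows. With the flank centred at 300 bp the ratio was 1.08 (adjusted exact p = 0.638). Narrower windows, 50 bp to each side, gave 1.40 (adjusted exact p = 0.178). At promoter summits the same word was in 19.7% of windows and 7.98% of flanks, a ratio of 2.47. The difference between members and promoter summits was tested on the regions with the word on 1 side alone, and GAGAGA was the only 1 of 12 words (8.33%) to pass. Its odds ratio was 0.584 (Fisher's exact test, two-sided, adjusted p = 0.0226). In the strongest regions of each replicate alone that difference was not past the threshold, with odds ratios of 0.773 in replicate 2 and 0.729 in replicate 1 (adjusted exact p = 0.37 and 0.189). ACACTG (odds ratio 1.52, adjusted exact p = 0.0917) and CACACA (0.713, adjusted exact p = 0.0656) did not pass. CACACA did pass in 4 of 5 alternatives: in replicate 2 alone (odds ratio 0.66, adjusted exact p = 0.0188), with windows of 50 bp (0.608, 0.0173) and 200 bp (0.73, 0.0347), and against the left flank (0.701, 0.0363).

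The homeodomain words gave no single answer. TAATTA occurred at 14.6% of member summits and in 13.5% of their flanks (ratio 1.08, adjusted exact p = 0.52), and in 14.3% of eligible windows. It was at place 626 of the 1763 ranked words. Its share in bins of 50 bp was 4.59% just left of the summit, 1.74% in the bin centred 125 bp to the right, and 5.14% in the bins centred 475 bp to the right and 775 bp to the left. The ratio accordingly depended on the flank. It was 1.61 against a flank at 300 bp (adjusted exact p = 7.29e-05), 0.995 against the left flank at 600 bp, and 0.839 with windows of 200 bp each side (adjusted exact p = 0.0325).

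CAATTA was lower at summits, in 15.7% of windows against 20.3% of flanks (ratio 0.77, adjusted exact p = 0.00995) and 19.9% of eligible windows. It did not pass with narrower windows, 50 bp to each side (0.907, adjusted exact p = 0.66), among the stronger 2223 regions (0.944, 0.7) or against the flank at 300 bp (1.04, 0.815). TAATCC occurred at 5.54% of summits and in 6.65% of their flanks (ratio 0.833, adjusted exact p = 0.363), and in 6.5% of eligible windows. It passed, as lower at summits, with windows of 200 bp each way (0.716, adjusted exact p = 0.0125) and against the left flank (0.7, adjusted exact p = 0.0498).

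Of the other words, ATCGAT (ratio 0.649), CAGCTG (0.704) and TGACTCA (0.5) missed the threshold, with adjusted exact p of 0.0532, 0.0581 and 0.0586. They were in 3.96%, 5.46% and 1.27% of summit windows and in 6.09%, 7.75% and 2.53% of flanks. Among eligible windows their shares were 5.305%, 7.065% and 1.73%. In the strongest regions of single replicates ATCGAT passed in both (0.597 in replicate 2 and 0.605 in replicate 1, adjusted exact p = 0.0302 and 0.0273). CAGCTG passed, as lower at summits, in 6 of 10 alternatives. Its ratio was 0.375 with narrower windows (adjusted exact p = 0.000986), 0.683 against the left flank (0.0402), 0.511 against the flank at 300 bp (1.12e-05), 0.67 against that at 1000 bp (0.0355), 0.66 over merged loci (0.0302) and 0.7 in replicate 1 alone (0.0326). Across all 10 its adjusted exact p reached up to 0.777, with windows of 200 bp. The remaining words (those of Zelda, forkhead proteins and GATA factors, and the simple repeat) had ratios from 0.886 to 1.17 and did not pass. Against the flank at 300 bp AGATAA stood at 1.52 (adjusted exact p = 0.00027) and CACACA stood at 0.701 (1.12e-05), and CACACA stood at 0.739 among the stronger 2223 regions (0.0453). Against intergenic summits 1 word differed, TGACTCA, which was in 16 members and 16 intergenic regions at the summit alone and in 32 and 6 at the flank alone (ratios 0.5 and 2.67, adjusted Fisher's exact p = 0.0473).

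Base composition also differed between summit and flank. G and C made up 36.7% ± 6.999 of the summit window (SD over 1264 regions), 40.7% of the right flank, 41.1% of the left flank and 40.04% of all eligible bases. The summit was lower than the flank in 851 members (67.3%, 95% Wilson interval 64.7 to 69.9%). Promoter summits had 40.6% against 42.6%, with the summit lower in 56.4%, and intergenic summits 36.6% against 41.3%. No word ratio was corrected for composition, and its part in them was not tested. Counted after the composition was seen, AAAAAAAA or its complement was in 24.8% of member summit windows and 15.03% of right flanks, and in 17.97% of promoter and 16.7% of intergenic summit windows.

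**Figure D5:**
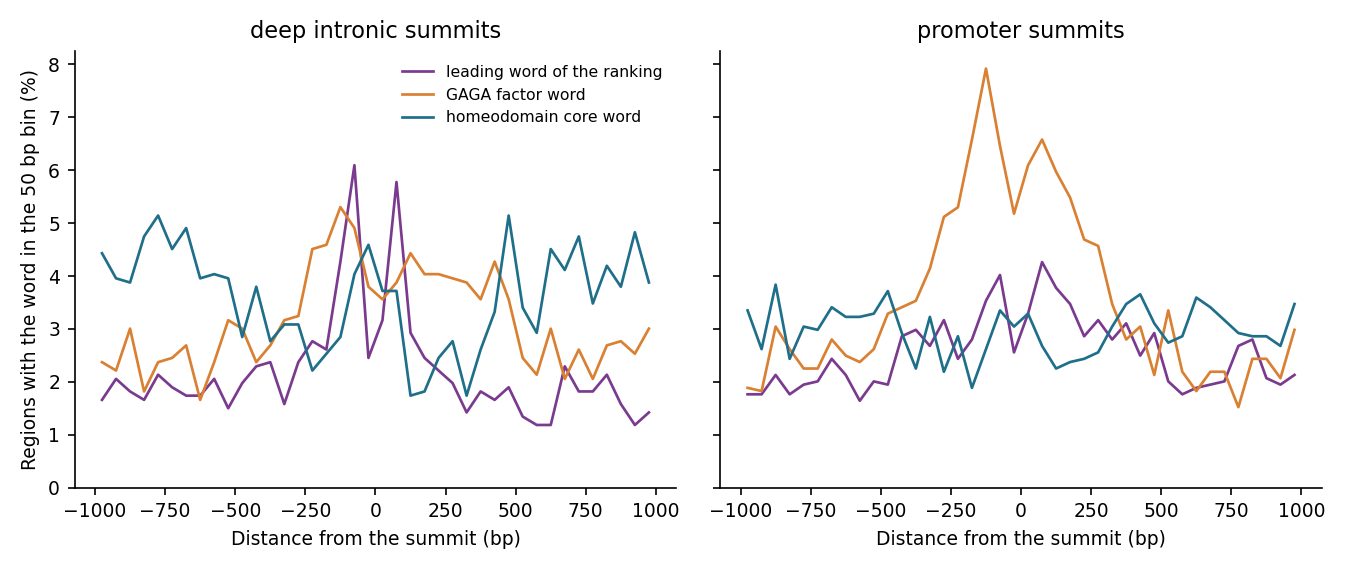
Percent of regions (y, from 0) that hold a word in each bin of 50 bp at a distance in bp from the summit (x), for 1264 deep intronic (left) and 1642 promoter summits (right); purple is the leading word of the ranking, orange the GAGA factor word and blue the homeodomain core word. In members the purple line peaks at 6.09% and 5.78% on either side of the summit, and at promoters the orange line reaches 7.92%.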

How the data were processed

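Per the file records, the authors called regions at a relaxed cut-off per replicate and on pooled reads, and derived the IDR list from them. Any aligner, caller or IDR threshold was not given in the sources used here. Region signal, as deposited by the authors, was used to rank and describe regions within a list; a further deposited column gives the summit offset. The IDR list was the 4447 strongest regions of the pooled list, so as many were taken from each replicate. Coordinates are 1-based on dm6. Genes were the 13945 protein-coding genes of Ensembl release 115, and sequence was RefSeq's copy of that assembly. A summit in several genes was given to the shortest gene. Analyses ran in Python 3.11.15 (scipy 1.17.1, pandas 2.3.3, numpy 2.4.6, and matplotlib 3.10.9 for figures). The word tests were tried on simulated windows with planted words, in which summit and flank had the same base composition. In the data the composition differed between them, and the simulation does not cover that. Members, words and gene lists were chosen with earlier results of these data known. Dl and Tor were matched as Delta and mTor, their symbols in the annotation. Named are the 20 strongest members, the 8 genes with most, those at the 2000 bp limit, the 3 farthest from a TSS and up to 4 hosts a list, plus any said to be named after their values were seen. The alternatives changed the TSS distance, the overlap, the intron numbering, the host gene, the windows and flanks, the strength and the replicate.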

Additional observations from a re-analysis of the deposited data

How the results depend on the processing

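With a TSS distance of 5000 bp the members numbered 782, 17.6% of IDR summits, with a median signal of 174, and with 1000 bp they were 36.3% of IDR summits. Among the stronger 2223 regions 610 were members, and 99.2% of these were found in both replicates. The change in number follows from how the alternatives were built. The 99.2% is partly built in as well, since regions high in the pooled list tend to stand high in the replicates that were pooled. The cause of the changes in median signal, and any further cause of those in the share found, was not tested. The share found in both replicates was 54.0% when each region had to overlap by 50%, and 68.5% when summits had to lie within 100 bp. Counting the first intron of any transcript, 58.6% of members and 36.6% of eligible bases lay in one, a ratio of 1.60. With introns numbered in the longest transcript, the ratio without the giant genes was 1.44. Of the 12 words, 6 passed with windows of 200 bp, 5 with the left flank and 5 with the flank at 300 bp. Leaving out a replicate gave 4 to 5 words. Words that differed from promoter summits numbered 3 with windows of 50 bp, 2 with 200 bp, 3 with the left flank and 0 to 1 without a replicate. The cause of these changes in word counts was not tested. TAATTA turned to a ratio of 0.839 with windows of 200 bp, and CAATTA to 1.04 with the flank at 300 bp. For the main results, 28 other values under these alternatives kept within their error or within 1.5 times the count. No paired analysis was possible because the samples form 1 group. Depth, and so the weakest region that could be called, is unknown, and p-values over regions do not measure variation between embryo collections.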
